A study of Mus musculus with 8 samples.

Results

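Keratins are the intermediate filament proteins of epithelia, and the array's 52 mouse genes whose file name is Krt followed by a number were followed here, out of 34963 gene names on the array. They were measured by 68 of 55669 probes, with 1 probe for 38 genes and more for 14. Keratin-associated proteins (Krtap) and Krtdap were left out by the same rule. The groups were Cdx1-/- medullary thymic epithelial cells (mTEC, 3 arrays), Cdx1+/+ mTEC (3 arrays) and small intestine epithelial cells (SIEC), with 1 array labelled Cdx1-/- and 1 labelled Cdx1+/+. All mice had a mixed C57BL/6 and 129 background, and the labels give neither an age nor how the Cdx1 allele was made. The mTEC were live sorted cells, negative for the leukocyte marker CD45, positive for Epcam and UEA1 and high for CD80 and MHC class II, which is the gate for the mature subset, from 4 to 6 pooled thymi per sample. The SIEC were sorted as live Epcam-positive, CD45-negative cells from 3 pooled mice. By its title the series asks how the genotypes compare in ectopic gene expression of mTEC.

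A keratin filament is built from pairs of 1 acidic (type I) and 1 basic (type II) chain, so each epithelium uses matched pairs. Simple epithelia such as gut use Krt8 with Krt18, Krt19 and Krt20, the basal layer of skin uses Krt5 with Krt14, and cells that leave that layer to cornify switch to Krt1 with Krt10. Further pairs belong to injured skin and nail, to oral mucosa and cornea, to the inner root sheath of hair and to the hair shaft. Mature mTEC transcribe genes of many organs, which removes developing T cells that react to them, and some mTEC take on a cornified, skin-like program as they age. Cdx1 is a homeobox transcription factor of intestinal epithelium.

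Most type I genes lie in 1 cluster and most type II genes in another, and the scanner files place the member probes accordingly on the mouse build mm9. The 27 members on chromosome 11 spanned 1.03 Mb (chr11:99094648-100128311). The 25 members on chromosome 15 spanned 0.682 Mb (chr15:101180014-101862400) and included Krt18, the type I gene that sits beside its partner Krt8.

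Promoter sequence was taken from RefSeq (GRCm38.p6), as the 250 bases before each gene's start, for 35 of the 52 genes. The next 4 are shown because Krt10 had the largest higher value in Cdx1-/- mTEC, Krt9 and Krt82 had the largest lower ones, and Krt20 is the keratin of intestinal villi. Each is written 5′ to 3′ on the gene's own strand, which is the minus strand for all 4. Capitals mark TTTATG on either strand (read as CATAAA on the other), a form of the site that Cdx and posterior Hox proteins bind, and TATAAA, a form of the TATA box.
Krt10 (chr11:99389365-99389614): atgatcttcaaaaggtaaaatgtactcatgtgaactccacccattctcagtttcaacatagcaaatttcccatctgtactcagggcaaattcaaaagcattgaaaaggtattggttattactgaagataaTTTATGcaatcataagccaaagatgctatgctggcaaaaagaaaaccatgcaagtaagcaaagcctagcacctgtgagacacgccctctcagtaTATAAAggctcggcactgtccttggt
Krt9 (chr11:100193247-100193496): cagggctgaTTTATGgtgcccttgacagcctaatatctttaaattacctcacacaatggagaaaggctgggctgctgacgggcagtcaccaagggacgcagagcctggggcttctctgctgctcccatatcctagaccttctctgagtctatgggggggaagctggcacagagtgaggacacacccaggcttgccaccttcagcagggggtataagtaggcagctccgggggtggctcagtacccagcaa
Krt82 (chr15:101550660-101550909): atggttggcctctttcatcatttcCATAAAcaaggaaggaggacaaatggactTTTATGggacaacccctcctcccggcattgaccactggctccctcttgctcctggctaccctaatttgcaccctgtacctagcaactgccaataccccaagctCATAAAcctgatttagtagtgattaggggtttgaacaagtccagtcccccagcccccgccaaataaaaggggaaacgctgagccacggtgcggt
Krt20 (chr11:99438154-99438403): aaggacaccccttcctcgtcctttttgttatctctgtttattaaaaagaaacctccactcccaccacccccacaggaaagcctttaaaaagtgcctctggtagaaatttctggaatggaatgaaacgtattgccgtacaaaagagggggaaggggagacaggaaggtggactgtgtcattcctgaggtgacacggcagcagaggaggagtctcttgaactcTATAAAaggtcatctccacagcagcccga

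The letters TTTATG, on either strand, were found in 16 of 36 keratin promoter entries (44.4%) and in 10.8% of 32851 promoters of the same length. TATAAA was found in 17 of the 36 (47.2%) and in 12.4% of all promoters, and in 12 keratin genes it lay on the gene's strand 25 to 35 bases before the start. TGANTCA, the AP-1 site found in many epidermal promoters, was found in 2 entries (5.56%), both of Krt13, and in 6.75% of all. CATAAA and TATAAA differ only in their first letter, so a match to one is never a match to the other at the same place. Some TTTATG matches nevertheless lay at the distance given for TATAAA. On the gene's strand CATAAA stood 30 (Krt13), 32 (Krt23), 33 (Krt75) and 34 (Krt84) bases before the start. None of these genes had TATAAA at that distance. The 4 hair keratins Krt31, Krt32, Krt33b and Krt34 are shown because their TTTATG lay at nearly the same distance from the start, 158, 158, 159 and 154 bases before it, in 40-base windows on the minus strand.
Krt31 (chr11:100050687-100050726): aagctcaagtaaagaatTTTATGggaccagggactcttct
Krt32 (chr11:100088405-100088444): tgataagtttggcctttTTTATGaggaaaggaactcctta
Krt33b (chr11:100030005-100030044): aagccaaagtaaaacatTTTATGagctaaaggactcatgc
Krt34 (chr11:100041686-100041725): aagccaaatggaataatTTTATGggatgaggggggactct
Neighbouring hair keratins are close copies of each other, so these windows are not independent. A match is a description of letters only. Of the 14 keratin genes that passed the test between the genotypes below, 10 had a promoter entry and 4 of these held TTTATG.

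Levels are log2 of the processed signal relative to the 75th percentile of the same array, so that 0 is that percentile and 1 unit is a 2-fold step. They compare a probe between arrays and not different probes with each other. The share of spots well above background was 58.6% to 59.2% in Cdx1-/- mTEC and 59.1% to 63.5% in Cdx1+/+ mTEC. It was 44.6% and 46.3% in the SIEC libraries labelled Cdx1-/- and Cdx1+/+. No spot of any keratin probe was saturated. Of the marker lists, 10 of 11 tested genes of mature mTEC were higher in mTEC than in SIEC, and 10 of 10 enterocyte genes were lower, where 34.3% of all genes were higher and 49.2% lower. Higher in mTEC too were 6 of 6 fibroblast and 7 of 8 dendritic cell and macrophage markers, none lower. Thymocyte markers split 4 higher and 4 lower of 10, endothelial 3 and 1 of 5, cortical epithelial 3 and 2 of 7, and tuft cell 4 and 0 of 7. The Cdx1 probe read 4.80, 4.99 and 5.00 in Cdx1-/- mTEC, against 5.88, 5.91 and 5.97 in Cdx1+/+ mTEC. It read 6.48 in the SIEC library labelled Cdx1-/-, against 4.87 in the one labelled Cdx1+/+, which goes against those 2 labels. None of the sources used here says whether this probe lies in the deleted part of the gene.

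Of the 52 keratin genes, 48 were well above background on all 6 mTEC arrays, and of the others Krt32 was so on no array. In SIEC, 20 were well above background on both arrays, 6 on 1 array and 26 on neither. Simple, basal, stress, cornifying, mucosal, root sheath and hair keratins were thus all measured in mTEC of both genotypes. These are bulk samples, in which fewer cells expressing a gene and less RNA per cell cannot be told apart.

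In Cdx1-/- mTEC, 8 keratin genes were higher and 6 lower than in Cdx1+/+ mTEC, of 49 that could be tested (28.6%, against 12.8% of all 24351 genes tested, limma with Benjamini-Hochberg adjustment over all genes). The background was 6.2% for higher and 6.61% for lower calls. The higher genes were the cornifying keratins Krt10 and Krt77, the stress keratins Krt6a and Krt6b, and Krt24, Krt78, Krt79 and Krt80. The lower ones were the cornifying keratins Krt9 and Krt2, the root sheath keratins Krt71 and Krt73, and the hair keratins Krt82 and Krt83. In all 14 the 3 Cdx1-/- arrays lay apart from the 3 Cdx1+/+ arrays, as they did in 25 of the 49 tested keratin genes and in 38% of all genes tested. Krt32, Krt39 and Krt74 were too dim to be tested. The median difference of the 49 genes was 0.02, and that of all genes 0.00027. Cdx1-/- replicate 1 was on a second slide with the SIEC arrays. Within the first slide, which held the other 5 mTEC arrays, 6 keratin genes were higher and 4 lower. The slide as a block gave the same counts, but for mTEC it amounts to leaving out that same array and is no separate check. With the fewest higher calls, 5 keratin genes were higher after leaving out Cdx1+/+ replicate 3 or Cdx1-/- replicate 2.

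**Figure D1:**
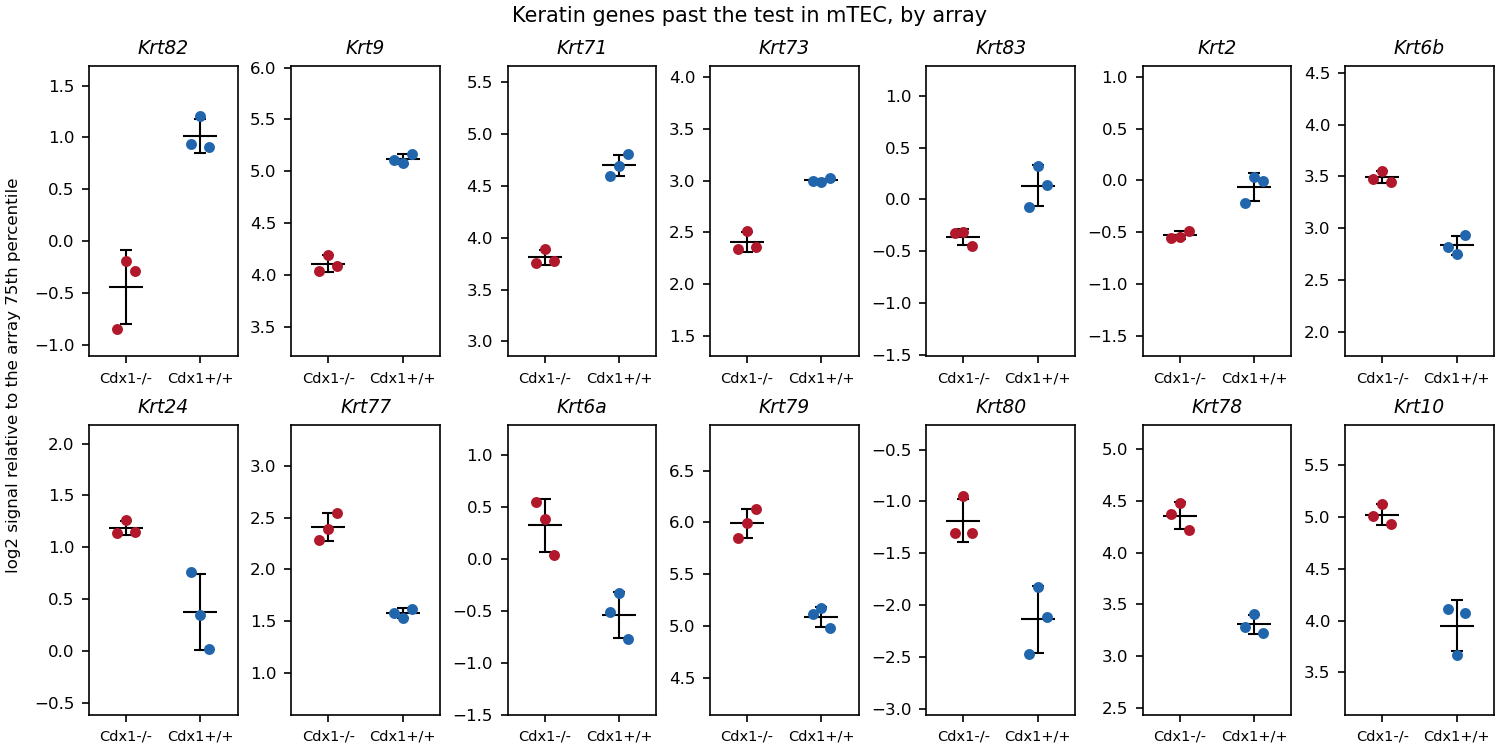
Levels on each of the 6 mTEC arrays of the 14 keratin genes that passed the test, as log2 signal relative to the array's 75th percentile. Points are arrays (Cdx1-/- left, Cdx1+/+ right), bars are the mean and SD of 3 arrays, every panel spans the same height, and the genes run from the most negative difference (Krt82) to the most positive (Krt10). In each panel the 3 Cdx1-/- arrays lie apart from the 3 Cdx1+/+ arrays.

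The cornifying keratins, made by cells on their way to the skin surface, moved in both directions. Krt10, the type I chain of the main suprabasal pair, read 5.01, 5.13 and 4.93 in Cdx1-/- mTEC, against 4.11, 3.67 and 4.08 in Cdx1+/+ mTEC. The difference was 1.07 ± 0.14 (SE, adjusted p = 0.0082, limma), a 2.10-fold higher level. A second Krt10 probe gave 4.54, 4.73 and 4.71 in Cdx1-/-, against 3.84, 3.70 and 3.98 in Cdx1+/+, a difference of 0.82 (adjusted p = 0.011 in a limma fit of every probe separately), so both Krt10 probes were higher on every Cdx1-/- array. Krt1, the type II partner of Krt10, read 1.39, 1.77 and 1.75 in Cdx1-/- mTEC, against 1.28, 1.82 and 1.67 in Cdx1+/+ mTEC. The Krt1 groups overlapped, with a difference of 0.04 ± 0.17 (adjusted p = 0.89, limma).

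Krt77, a suprabasal type II keratin, read 2.29, 2.39 and 2.55 in Cdx1-/- mTEC, against 1.58, 1.53 and 1.62 in Cdx1+/+ mTEC. It was 1.78-fold higher, with a difference of 0.83 ± 0.10 (adjusted p = 0.0062, limma). Krt9, the type I keratin of palm and sole skin, read 4.04, 4.19 and 4.09 in Cdx1-/- mTEC, against 5.11, 5.08 and 5.17 in Cdx1+/+ mTEC. Its arrays were tight within each genotype, and it was 2.01-fold lower (difference -1.01 ± 0.08, adjusted p = 0.0031, limma). Krt2, a type II keratin of the upper epidermal layers, read -0.56, -0.55 and -0.49 in Cdx1-/- mTEC, against -0.22, 0.03 and -0.01 in Cdx1+/+ mTEC. Krt2 was 1.38-fold lower (difference -0.47 ± 0.10, adjusted p = 0.028, limma), but the mean with its second, dimmer probe gave -0.20 with an adjusted p of 0.39 (limma), and leaving out 5 of the 6 arrays in turn also ended the call.

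The stress keratins, which skin makes on wounding and which nail and hair follicles make steadily, gave 2 higher genes of 4, with a median difference of 0.49. Of all genes, 6.2% were higher. Krt6b, a type II chain, read 3.48, 3.56 and 3.45 in Cdx1-/- mTEC, against 2.82, 2.75 and 2.93 in Cdx1+/+ mTEC, a difference of 0.66 ± 0.09 (adjusted p = 0.0085, limma). Krt6a, its close copy, read 0.55, 0.39 and 0.04 in Cdx1-/- mTEC, against -0.51, -0.33 and -0.77 in Cdx1+/+ mTEC, a difference of 0.86 ± 0.17 (adjusted p = 0.024, limma). On these 2 probes no array of one genotype reached the range of the other, though whether the copies share signal was not tested. A second Krt6b probe gave 0.26 (adjusted p = 0.20, limma), and its arrays overlapped between the genotypes. The type I partners Krt16 and Krt17 gave 0.33 ± 0.12 and 0.11 ± 0.13 and did not pass (adjusted p = 0.13 and 0.59, limma).

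Of the 7 keratins outside the named classes, 4 were higher, beside 6.2% of all genes. Krt78, an epithelial type II keratin, read 4.37, 4.48 and 4.22 in Cdx1-/- mTEC, against 3.28, 3.41 and 3.23 in Cdx1+/+ mTEC, a difference of 1.05 ± 0.10 (adjusted p = 0.0041, limma). An overlapping second Krt78 probe gave 1.04. Krt79, which in mouse skin marks the hair canal and sebaceous duct, read 5.85, 6.00 and 6.13 in Cdx1-/- mTEC, against 5.12, 5.17 and 4.98 in Cdx1+/+ mTEC, a difference of 0.90 ± 0.11 (adjusted p = 0.0063, limma). The other 2 genes were dimmer and more spread.

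Krt80 read -1.31, -0.95 and -1.31 in Cdx1-/- mTEC, against -2.47, -1.83 and -2.11 in Cdx1+/+ mTEC, a difference of 0.95 ± 0.19 (adjusted p = 0.024, limma). Krt24, a type I keratin of differentiating keratinocytes, read 1.14, 1.26 and 1.15 in Cdx1-/- mTEC, against 0.76, 0.35 and 0.02 in Cdx1+/+ mTEC, a difference of 0.81 ± 0.18 (adjusted p = 0.036, limma). Leaving out 1 array at a time ended the call of Krt80 for 3 of the 6 arrays, of Krt6a for 4 and of Krt24 for 5. The calls of Krt6a and Krt24 were also lost with the slide as a block, which repeats leaving out Cdx1-/- replicate 1. Of the other 3 genes outside the named classes, Krt23 gave 0.45 ± 0.12 (adjusted p = 0.052, limma), Krt42 gave -0.13, and Krt222 is described with its probes.

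The inner root sheath keratins, which mould the growing hair, gave 2 lower genes of 8 tested, none higher, and a median of -0.20. That is 25% called, beside 12.8% of all genes. Krt71, a type II chain, read 3.76, 3.89 and 3.78 in Cdx1-/- mTEC, against 4.60, 4.69 and 4.81 in Cdx1+/+ mTEC, and was 1.85-fold lower (difference -0.89 ± 0.09, adjusted p = 0.0049, limma). Krt73, another type II chain, read 2.34, 2.52 and 2.36 in Cdx1-/- mTEC, against 3.00, 2.99 and 3.02 in Cdx1+/+ mTEC, a difference of -0.60 ± 0.09 (adjusted p = 0.011, limma). For both genes the highest Cdx1-/- array lay below the lowest Cdx1+/+ array by more than the range within either genotype. Krt72, which lies between them on chromosome 15, gave 0.02 ± 0.13 and did not pass (adjusted p = 0.95, limma). The type I chain Krt25 gave -0.47 ± 0.12 and just missed the threshold (adjusted p = 0.054, limma), which it passed under 6 of 15 other settings. The root sheath genes that did not pass lay between -0.47 (Krt25) and 0.14 (Krt75).

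The hair shaft keratins, which are hard keratins rich in cysteine, gave 2 lower genes of 13 tested, none higher, and a median of -0.04. That share of calls (15.4%) was near the 12.8% of all genes. Krt82, a type II chain of the hair cuticle, read -0.85, -0.19 and -0.29 in Cdx1-/- mTEC, against 0.94, 1.20 and 0.90 in Cdx1+/+ mTEC. Its difference of -1.46 ± 0.19 (adjusted p = 0.0082, limma) was the largest of the tested keratin genes in size, a 2.74-fold lower level. Krt83 read -0.33, -0.31 and -0.45 in Cdx1-/- mTEC, against -0.07, 0.32 and 0.14 in Cdx1+/+ mTEC, a difference of -0.49 ± 0.12 (adjusted p = 0.043, limma). That gene is named Krt87 in RefSeq, and the call was lost under 8 of 15 other settings, the block on replicate number among them. Krt81, a close relative, read 0.88, 0.74 and 0.66 in Cdx1-/- mTEC, against 1.06, 1.50 and 1.18 in Cdx1+/+ mTEC, apart but not past the threshold (difference -0.49 ± 0.14, adjusted p = 0.062, limma). The hair keratins that did not pass lay between that of Krt81 and 0.36 (Krt33a).

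The probes of Krt81 and Krt83 are shown because they were identical at 51 of 55 aligned bases, so that RNA of either gene may bind both. Capitals mark the 4 aligned bases that differ (build mm9, minus strand, Krt81 at chr15:101290583-101290642 and Krt83 at chr15:101263556-101263615).
Krt81: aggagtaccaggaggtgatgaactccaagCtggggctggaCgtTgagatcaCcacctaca
Krt83: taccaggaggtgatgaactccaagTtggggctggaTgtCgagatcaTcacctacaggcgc

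No keratin gene of the simple class (5 tested), the basal class (3) or the mucosal and corneal class (4) passed the test between the genotypes on its brightest probe. The filament pair of simple epithelia, Krt8 and Krt18, gave -0.03 ± 0.14 and 0.18 ± 0.16. Krt18 read 8.19, 8.66 and 8.67 in Cdx1-/- mTEC, against 8.16, 8.43 and 8.39 in Cdx1+/+ mTEC, and Krt8 read 7.40, 7.85 and 7.82 in Cdx1-/-, against 7.59, 7.83 and 7.73 in Cdx1+/+. The arrays of these 2 probes overlapped between the genotypes. A second Krt8 probe read 6.81, 6.89 and 6.80 in Cdx1-/- mTEC, against 6.52, 6.63 and 6.52 in Cdx1+/+ mTEC, apart and of the other sign (difference 0.28, adjusted p = 0.085, limma, every probe separately). Krt20 read 4.27, 4.21 and 4.31 in Cdx1-/- mTEC, against 4.57, 4.44 and 4.59 in Cdx1+/+ mTEC. Its arrays did not overlap, but the difference of -0.28 ± 0.09 did not pass (adjusted p = 0.081, limma).

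Krt19, a type I keratin of simple and stratified epithelia without a fixed partner, read 3.74, 3.74 and 3.66 in Cdx1-/- mTEC, against 3.70, 3.93 and 3.79 in Cdx1+/+ mTEC (difference -0.10 ± 0.09). Krt7, the type II keratin of ducts, read 3.51, 3.56 and 3.50 in Cdx1-/- mTEC, against 3.65, 3.81 and 3.63 in Cdx1+/+ mTEC (difference -0.18 ± 0.09, adjusted p = 0.22, limma). Neither difference passed.
The basal pair, which marks many medullary cells, read for Krt5 6.50, 6.62 and 6.60 in Cdx1-/- mTEC, against 6.62, 6.71 and 6.17 in Cdx1+/+ mTEC, and for Krt14 3.95, 4.39 and 4.21 in Cdx1-/-, against 4.17, 4.20 and 3.90 in Cdx1+/+. The differences of 0.07 ± 0.15 and 0.09 ± 0.14 were smaller than their errors. A dimmer second Krt5 probe read 1.01, 0.86 and 1.04 in Cdx1-/- mTEC, against 0.46, 0.72 and -0.19 in Cdx1+/+ mTEC, apart but not past the threshold (difference 0.64, adjusted p = 0.12, limma, every probe separately). Krt15, a further basal type I chain, read 1.84, 1.81 and 1.59 in Cdx1-/- mTEC, against 2.00, 2.00 and 2.05 in Cdx1+/+ mTEC, a difference of -0.27 ± 0.10 (adjusted p = 0.11, limma). The mucosal and corneal keratins ranged from -0.14 (Krt76, of the palate) to 0.35 (Krt13, of the oesophagus). Second, dimmer probes differed from these: that of Krt12, the corneal keratin, passed when every probe was fitted separately (0.53, against 0.17 on the brighter probe, adjusted p = 0.032, limma), and that of Krt13 gave -0.22.

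**Figure D2:**
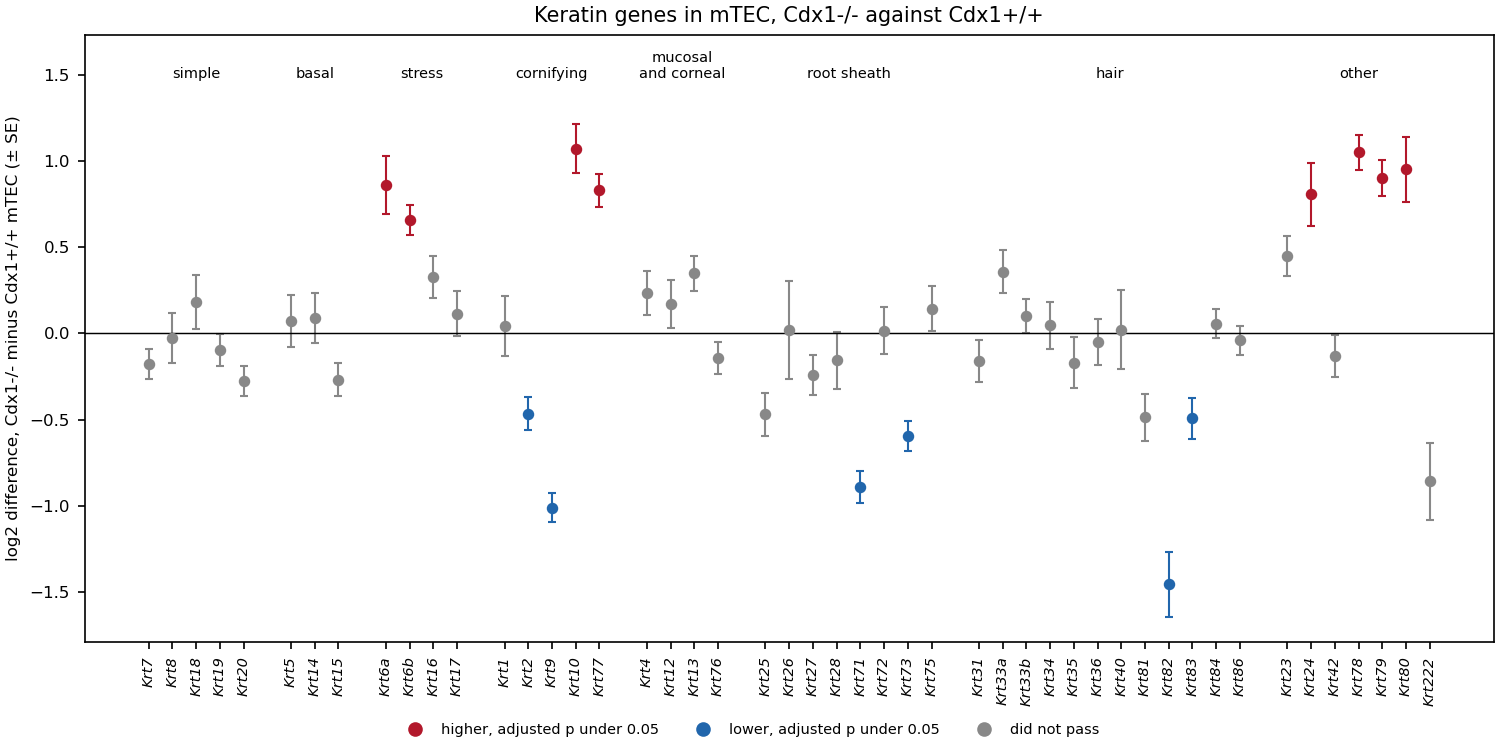
Log2 difference, Cdx1-/- minus Cdx1+/+ mTEC, with its SE, for 48 of the 49 keratin genes tested, grouped by class. Red genes were higher and blue genes lower at an adjusted p under 0.05. The calls lie in the stress, cornifying, root sheath, hair and other classes, between -1.46 (Krt82) and 1.07 (Krt10), and the simple, basal and mucosal genes lie between -0.28 and 0.35.

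Because keratins assemble in pairs, the log2 signal of the type I chain minus that of its type II partner was compared between the genotypes for 5 pairs. For Krt10 and Krt1 it was 3.62, 3.36 and 3.18 in Cdx1-/- mTEC, against 2.83, 1.84 and 2.41 in Cdx1+/+ mTEC, a shift of 1.03. Every Cdx1-/- array lay above every Cdx1+/+ array, and the 2-sided exact permutation test gave p = 0.1 (0.167 adjusted over the 5 pairs). That is the smallest value that 3 arrays against 3 can give. For Krt14 and Krt5 the shift was 0.02 (exact permutation p = 0.9). Krt18 and Krt8 shifted by 0.21, Krt16 and Krt6b by -0.33 (exact permutation p = 0.1 each, 0.167 adjusted), and Krt13 and Krt4 by 0.11 (exact permutation p = 0.7). These shifts hold for the brightest probe of each gene only. Second probes gave other genotype differences: 0.28 for Krt8 (-0.03 on the brightest), 0.26 for Krt6b (0.66), -0.22 for Krt13 (0.35) and 0.64 for Krt5 (0.07). For Krt10 it was 0.82 (1.07). The pairs were not tested with these second probes.

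Along the clusters, 11 of 24 tested genes on chromosome 15 passed (6 higher, 5 lower) and 3 of 25 on chromosome 11 (2 higher, 1 lower), beside 12.8% of all genes. Higher and lower genes lay close to each other on chromosome 15. Krt6b and Krt6a were both higher, and Krt71, Krt73 and Krt2 lower, with Krt5 (0.07) and Krt72 (0.02) among them. Krt79 and Krt78 were higher, and Krt8 and Krt18 after them gave -0.03 and 0.18. The medians of the 2 clusters were 0.05 on chromosome 15 and 0.02 on chromosome 11.

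**Figure D3:**
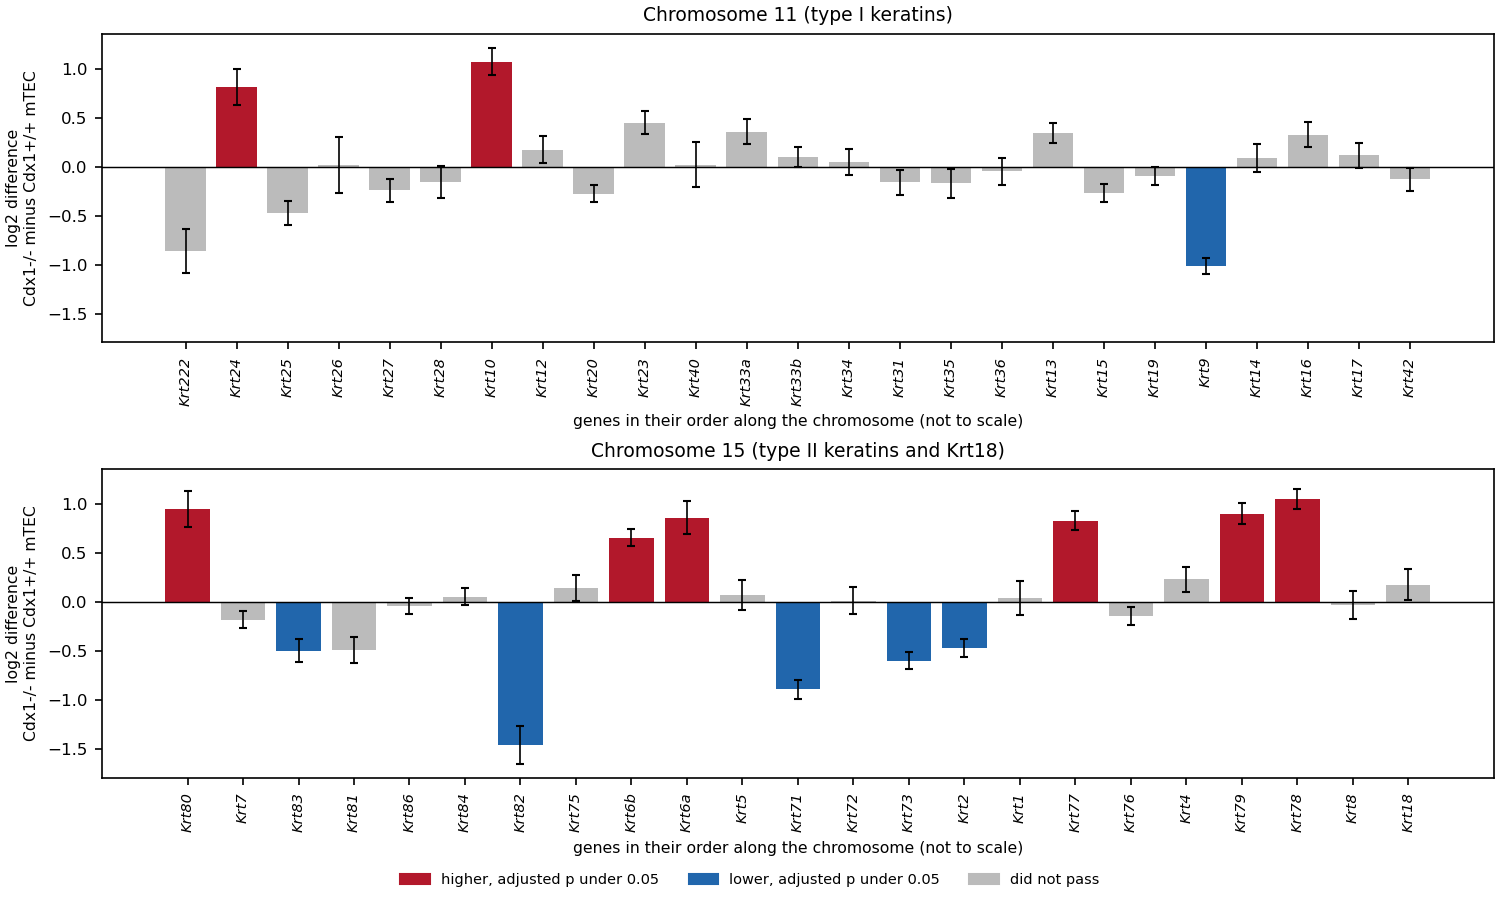
Log2 difference, Cdx1-/- minus Cdx1+/+ mTEC (bars, with SE), for the keratin genes in their order along chromosomes 11 and 15, not to scale. Red bars were higher, blue bars lower and grey bars did not pass. Chromosome 15 shows 11 coloured bars of both directions and chromosome 11 shows 3.

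Several genes were read by probes that went different ways. Of 12 keratin genes with more than 1 probe fitted, 7 had the same sign on all probes and 5 had opposite signs. Krt222, a short keratin-like gene, read 0.64, 1.17 and 1.28 on its brighter probe in Cdx1-/- mTEC, against 1.56, 2.21 and 1.89 in Cdx1+/+ mTEC (difference -0.86 ± 0.22, adjusted p = 0.052, limma). Its dimmer probe read -2.58, -1.98 and -2.18 in Cdx1-/-, against -3.43, -3.31 and -3.33 in Cdx1+/+, a difference of 1.11 (adjusted p = 0.013, limma, every probe separately). Both differences separated the arrays fully, in opposite directions, so no direction is given for Krt222.

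Genes whose products bundle or anchor keratins were read from lists. Of 16 tested genes of the cornified envelope and filament bundling, 9 were higher in Cdx1-/- mTEC and none lower, with a median of 0.51, beside 12.8% of all genes called (6.2% higher, 6.61% lower). Among them were Rptn (repetin), which averaged 2.60 ± 0.04 in Cdx1-/- mTEC and 1.35 ± 0.10 in Cdx1+/+ mTEC (SD, n = 3 each), and the protease inhibitor Spink5, with 4.59 ± 0.15 in Cdx1-/- mTEC and 3.49 ± 0.03 in Cdx1+/+ mTEC. Ivl (involucrin, an envelope scaffold) differed by 0.71 ± 0.08 and Sbsn (suprabasin) by 0.68 ± 0.09 (SE, adjusted p = 0.0056 and 0.0096, limma). Of 15 tested desmosome genes, 5 were higher and 1 lower, with a median of 0.20. Perp gave 0.68, the plaque protein Pkp1 0.51, and the cadherins Dsc1 and Dsg3, both dim, 1.12 and 0.95, while Dsg4, the cadherin of hair, fell by 0.38 on the log2 scale but did not pass with a replicate block (adjusted p = 0.057, limma). With that block Tgm3, a transglutaminase, passed as lower among the envelope genes (-0.63, adjusted p = 0.033, limma). With the slide as a block, 7 envelope genes and 4 desmosome genes were higher and none lower.

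The hemidesmosome, which ties the basal filaments to the basement membrane, gave 1 lower gene of 6, Col17a1 (-0.63 ± 0.09, adjusted p = 0.0096, limma), and none higher, a share near that of all genes. Of 16 regulators of keratinocytes and hair, 4 were higher and none lower, beside 6.2% of all genes higher and 6.61% lower. These were Klf4 by 0.51, Grhl1 by 0.51, Grhl3 by 0.43 and Gata3 by 0.35. Gata3 did not pass with a replicate block (adjusted p = 0.054, limma), and Grhl1 and Grhl3 not with the slide as a block (0.069 and 0.078). Of 16 other intermediate filament genes, such as vimentin and the lamins, none passed, and their median was -0.15, but Gfap (-0.90) and Nefl (-0.50), filaments of glia and neurons, passed as lower with a replicate block (adjusted p = 0.038 and 0.040, limma).

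Marker lists of other cells moved with genotype in the same arrays, where 6.2% of all genes were higher and 6.61% lower. Of 10 tested enterocyte markers 8 were lower and none higher, and their summed signal (in units of the array's 75th percentile) was 15.7 to 16.5 in Cdx1-/- mTEC, against 30.9 to 35.4 in Cdx1+/+ mTEC. Of 7 tested tuft cell markers 5 were higher and none lower, with sums of 8.91 to 10.3 in Cdx1-/- mTEC, against 4.56 to 6.07 in Cdx1+/+ mTEC. No cortical thymic epithelial marker of 7 passed. Their sums of 182 to 246 in Cdx1-/- mTEC and 134 to 175 in Cdx1+/+ mTEC were nearly all Ccl25 (0.51 ± 0.14, adjusted p = 0.061, and 0.027 with a replicate block, limma), while Cxcl12 gave -0.39 and Dll4 -0.02. The sums of mature mTEC, thymocyte, dendritic cell and macrophage, fibroblast and endothelial markers overlapped between the genotypes. Single members passed all the same: the macrophage markers Mrc1 (-1.43) and Lyz2 (0.93), the fibroblast marker Pdgfrb (-0.79), the thymocyte marker Ptcra (-0.49) and Cd86 of mature mTEC (0.35, adjusted p = 0.051 with a replicate block, limma). With the slide as a block, 3 tuft cell markers were higher. The part of these cells in the keratin differences was not tested.

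Between tissues, 40 of 50 tested keratin genes were higher in mTEC than in SIEC and 7 lower, beside 34.3% of 25290 genes higher and 49.2% lower, 83.5% in all (limma, all 8 arrays, adjusted p under 0.05). The median difference, mTEC minus SIEC, was 4.60 for keratin genes and -0.42 for all genes. Another scaling moved the median of all genes to between -0.90 and 0.41. With the slide as a block 39 keratin genes were higher and 7 lower, and without a genotype term, since the SIEC labels are in doubt, 40 and 7. Within the slide that held both SIEC arrays, Cdx1-/- mTEC replicate 1 differed from their mean in the same direction for all 47 genes that passed, with a median of 4.79 against 4.78 in the fit. These arrays are part of the fit that chose the 47 genes, so this is not an independent check. Of all genes 8678 were higher and 12434 lower in mTEC, a split that became 12382 and 6637 with the percentile taken over detected probes, and 6063 and 14527 with normexp background correction. Of the 50, 24 were well above background on neither SIEC array and entered the test through mTEC alone. All 24 were among the 40 higher genes, a direction that the filter favours, so the count of 40 is not independent of it. The class counts that follow include them. Their folds rest on SIEC signal near background and are not firm lower limits. All 7 lower genes were among the 20 tested genes well above background on both SIEC arrays. Every tested gene of the basal, stress, cornifying and mucosal classes was higher in mTEC, as were 8 of 9 root sheath and 12 of 13 hair keratins. The 3 genes that did not pass were Krt18, Krt74 and Krt80.

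Krt17 read 7.83, 8.17 and 8.18 in Cdx1-/- mTEC and 7.88, 8.10 and 7.86 in Cdx1+/+ mTEC. In SIEC it was not well above background, at -5.39 and -5.81 in the libraries labelled Cdx1-/- and Cdx1+/+. Set against that signal, Krt17 was 12464-fold higher in mTEC. Other keratins not well above background in SIEC were treated alike. The basal type II chain Krt5 was 1638-fold, Krt9 823-fold, Krt71 788-fold and Krt78 334-fold higher in mTEC. Krt1 was 112-fold and Krt77 147-fold higher. These folds hold for the processing used here and are not firm lower limits. With normexp background correction the log2 differences were 10.21 for Krt17, 6.82 for Krt9, 6.45 for Krt71, 5.77 for Krt78, 4.12 for Krt77 and 3.66 for Krt1. The mean of the Krt5 probes gave 7.96. Brighter SIEC signal could also fall short of the flag. Krt27 read -3.33 and -3.80 in the libraries labelled Cdx1-/- and Cdx1+/+ and was well above background in neither. The basal partners Krt14 and Krt15 were measured in SIEC, Krt14 on 1 array only, and differed by 7.51 ± 0.29 and 4.49 ± 0.12 (SE, limma). Krt15 read -2.59 in the SIEC library labelled Cdx1-/- and -2.62 in the one labelled Cdx1+/+, and Krt14 read -4.02 and -2.73 in them.

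Keratins well above background on both SIEC arrays gave measured folds on both sides. Krt16 read 5.97, 6.33 and 6.15 in Cdx1-/- mTEC and 5.77, 5.97 and 5.73 in Cdx1+/+ mTEC, against -1.79 and -1.58 in the SIEC libraries labelled Cdx1-/- and Cdx1+/+, 204-fold higher in mTEC. Krt79 was 104-fold higher in mTEC, with -1.51 and -0.81 in the same order of SIEC libraries, Krt13 88.9-fold (-2.91 and -2.71) and Krt6b 85.3-fold (-2.94 and -3.56). All 4 belong to stratified or glandular epithelia, and their SIEC levels were dim but above background.
The hair and root sheath keratins Krt73, Krt84 and Krt81 were 27.5-fold, 26.1-fold and 10.1-fold higher in mTEC. Krt10 was 19.2-fold higher on its second probe, which read -0.11 and 0.08 in the SIEC libraries labelled Cdx1-/- and Cdx1+/+, and Krt23, an epithelial type I keratin, 8.71-fold (1.53 and 2.71). The first Krt10 probe, also well above background on both SIEC arrays, gave a larger log2 difference, 5.39 against 4.26 on the second (limma, every probe separately). Krt31 read -1.59 and -1.73 in SIEC and was the least different of those that passed (0.43 ± 0.14, adjusted p = 0.022, limma), and under the authors' deposited table its sign turned (-0.05). That call was also lost with the slide as a block, normexp, quantile normalization or without the SIEC library labelled Cdx1+/+.

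Of the 7 keratin genes lower in mTEC, 4 were simple keratins, and Krt19 had the largest difference, followed by Krt42, which is not a simple keratin. Krt19 read 8.86 and 9.04 in the SIEC libraries labelled Cdx1-/- and Cdx1+/+, above all 6 mTEC arrays by about 5 log2 units, and was 36.6-fold lower in mTEC (difference -5.19 ± 0.10, adjusted p = 9.2e-09, limma). Krt20 read 8.68 and 7.54 in them and was 13.1-fold lower in mTEC (-3.71 ± 0.28, adjusted p = 7.1e-06, limma). Krt8, which read 9.21 and 9.07 in SIEC, was 2.71-fold lower (-1.44 ± 0.15) except under quantile normalization, where -0.21 did not pass (adjusted p = 0.058, limma). Krt18, its partner, read 7.88 and 8.34 in SIEC and did not pass (0.31 ± 0.20, adjusted p = 0.18, limma), but over the other settings its difference ranged from -0.18 to 1.51 and passed as higher in mTEC under 4 of 17, among them leaving out the SIEC library labelled Cdx1+/+. Krt7 read 3.96 and 4.27 in SIEC and was lower by 0.51 ± 0.10 on the log2 scale (adjusted p = 0.0020, limma), but its sign turned with quantile normalization (0.30) and with a percentile over detected probes (0.33).

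Krt42, a type I keratin known from mouse hair and nail, read 1.51, 1.75 and 1.69 in Cdx1-/- mTEC and 1.60, 1.95 and 1.78 in Cdx1+/+ mTEC, against 6.54 and 6.83 in the SIEC libraries labelled Cdx1-/- and Cdx1+/+. It was 31.4-fold lower in mTEC (-4.97 ± 0.13, adjusted p = 2.8e-08, limma), while a second Krt42 probe was well above background on no array. The brighter Krt42 probe is shown with that of Krt28, a related gene, because 41 of 58 aligned bases were identical, and capitals mark the 17 that differ (build mm9, minus strand, Krt42 at chr11:100128252-100128311 and Krt28 at chr11:99234074-99234133).
Krt42: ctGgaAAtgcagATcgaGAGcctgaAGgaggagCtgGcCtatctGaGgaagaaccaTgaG
Krt28: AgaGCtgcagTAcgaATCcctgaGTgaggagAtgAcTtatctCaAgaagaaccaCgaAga
Which RNA the brighter Krt42 probe read in SIEC was not tested. The Krt28 probes were well above background in mTEC and not in SIEC. Krt222, on its brighter probe, was 7.57-fold lower in mTEC (4.80 and 3.96 in SIEC). On the dimmer probe, not well above background in SIEC, it was 7.19-fold higher, again in opposite directions.

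**Figure D4:**
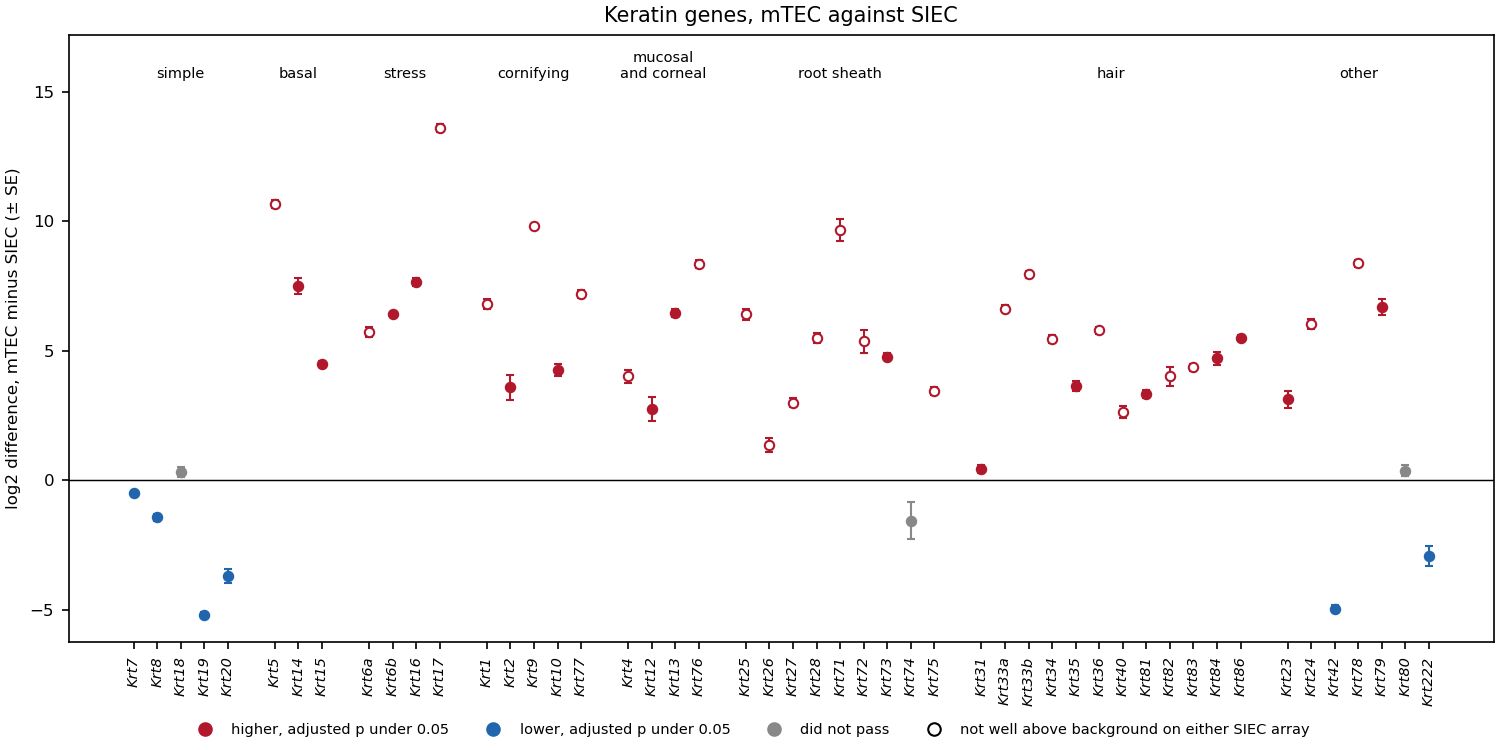
Log2 difference, mTEC minus SIEC, with its SE, for 49 of the 50 keratin genes tested, grouped by class. Red genes were higher in mTEC, blue genes lower, and open circles mark genes well above background on neither SIEC array. Differences of open circles, such as that of Krt17 (13.61), are fitted values against SIEC signal near background and are not bounds. Krt19 lies at -5.19, and 4 of the 5 simple keratins lie below 0.

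Between the 2 SIEC libraries there is no replicate and no test, and the Cdx1 probe goes against their labels. Of 20 keratin genes well above background on both, 1 was higher and 2 lower by more than 2-fold in the library labelled Cdx1-/-, as were 4.63% of 17175 genes in either direction. Krt20 was higher by 1.14 on the log2 scale in the library labelled Cdx1-/-, and Krt23 and Krt84 were at -1.18 and -1.12. These counts depended on the scaling: 1 higher and 0 lower with quantile normalization, 0 and 2 in the authors' deposited table, and 1 and 1 with normexp. The median of the 20 was -0.19, beside -0.03 for all genes. The 5 simple keratins spanned -0.47 (Krt18) to 1.14 (Krt20).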

How the data were processed

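Agilent 1-colour (Cy3) arrays were used, 1 per pooled sample. The deposited scanner files hold linear intensity per spot from Agilent Feature Extraction 10.7.3.1, background-subtracted and detrended within each array, per the file headers. In the authors' deposited normalized table each column is its own array's processed intensity times 1 constant, with a median of 1, and it served as an alternative.

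Outlier spots were dropped, signals were put on the log2 scale, the 75th percentile of the array was taken off, and repeated spots were averaged by probe. A probe was tested if 2 or more arrays of a group (1 for a group of 1 array) had it well above background, with the brightest probe per gene. Gene names came from the files and RefSeq (GRCm38.p6). limma 3.58.1 in R 4.3.3 (lmFit, eBayes) was fitted to all genes, with a threshold of 0.05 after Benjamini-Hochberg adjustment, to the 6 mTEC arrays for genotype and to all 8 with an additive genotype term for tissue. The fit was tested on simulated data, where it recovered 72% of changes of 1 log2 unit. Some probes were well above background on neither SIEC array. Their folds in the text use the probe's own value or the lowest level that counted as well above background on that array. The higher of these was taken, and such folds are not firm lower limits. Exact permutation tests used scipy 1.17.1, tables pandas 2.3.3 and plots matplotlib 3.10.9.

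Slides came from array barcodes: Cdx1-/- mTEC replicate 1 and both SIEC arrays were on a slide apart. Same-numbered mTEC samples, numbered in their titles, deviated together (correlations 0.321, 0.147 and 0.148 over 24351 genes), so replicate number was fitted as a block as an alternative. Samples are separate pools, per the labels, and 3 arrays per group limit the precision. Values per array are given for members past the genotype test (up to 16), for up to 10 per direction among those above background on both SIEC arrays and for all simple, basal and cornifying keratins, and of each partner list up to 4 genes of smallest p are named. Krt222 and the near-threshold genes were added after their values were seen. The members and all lists were chosen with earlier results of these data known. 1 member is counted but not reported by name here.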

Additional observations from a re-analysis of the deposited data

Results flagged for a closer look

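Krt10 was higher in Cdx1-/- mTEC but differed by -0.18 log2 units in SIEC, library labelled Cdx1-/- minus library labelled Cdx1+/+. Krt79, also higher in Cdx1-/- mTEC, differed by -0.70 there. As labelled, these are opposite directions under the same contrast in 2 tissues, and with the 2 SIEC labels turned the directions would be the same. The other keratin genes that passed in mTEC and were measured on both SIEC arrays went the other way. As labelled, Krt6b (0.62 in SIEC), Krt80 (0.45) and Krt73 (-0.17, but 0.03 with normexp) had the same direction in both tissues. With the labels turned, their directions would be opposite. The Krt10 value in SIEC comes from its second probe and is close to the median of the 20 keratin genes measured there (-0.19). The difference between the tissues was not tested, SIEC has 1 array per genotype, and the Cdx1 probe goes against the labels of those 2 arrays.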

How the results depend on the processing

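Of the 14 keratin genes that passed between the genotypes, 9 passed under all 15 other settings (Krt9, Krt10, Krt71, Krt73, Krt77, Krt78, Krt79, Krt82 and Krt6b), and none turned its sign among those that passed. Of these settings, the slide as a block and leaving out Cdx1-/- replicate 1 are nearly the same fit. Without a filter on dim probes, which tests more genes, 5 keratin genes were higher and 4 lower, against 590 and 720 of all genes. Normexp background correction gave 964 higher and 980 lower genes, and slide as a block 847 and 930; the cause was not tested. Leaving out 1 mTEC array at a time, which leaves fewer samples, gave 5 to 7 keratin genes higher and 4 to 6 lower, and 599 to 873 higher and 632 to 1026 lower genes in all. The replicate block gave 9 keratin genes higher and 7 lower. It ended the call of Krt83, added Krt222, Krt23 and Krt25, and changed no other keratin call. Among the partner and marker genes named here it ended the calls of Dsg4, Gata3 and Cd86. Between tissues, 40 of 46 named keratin genes that passed did so under all settings tried, and 3 turned their sign somewhere: Krt7 (0.30 with quantile normalization, 0.33 with a percentile over detected probes), Krt26 (-0.46 with normexp) and Krt31 (-0.050 in the authors' deposited table). All genes lower in mTEC numbered 6637 with the percentile over detected probes and 19002 without the filter on dim probes; the cause was not tested for the first. Fitting every probe separately, leaving out the genotype term, and the blocks on the partner and marker lists were chosen after seeing the data. Signal near background, 1 array per genotype and the scaling limit the SIEC values.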

Other observations

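Probes that RefSeq, but not the scanner files, names as keratins were found for 2 further genes, both within the type II cluster on chromosome 15. Krt90 read 0.30, 0.18 and 0.10 in Cdx1-/- mTEC, against 0.37, 0.52 and 0.52 in Cdx1+/+ mTEC, which did not overlap but did not pass (difference -0.28, adjusted p = 0.11, limma). Krt88 read -2.89, -2.95 and -2.98 in Cdx1-/- mTEC, against -2.75, -2.74 and -2.62 in Cdx1+/+ mTEC (difference -0.24, adjusted p = 0.13, limma). Both were well above background on all 6 mTEC arrays and on neither SIEC array. They were chosen for their names in RefSeq and are not among the 52 genes counted.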
